A study of Mus musculus with 6 samples.

Results

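The FGF4 to ERK pathway and its feedback was followed in mouse embryonic stem cells (mESCs) through 10 genes chosen by name from the 55385 genes of the count table. They are the ligand gene *Fgf4*, the receptor genes *Fgfr1* and *Fgfr2*, the phosphatase genes *Dusp4* and *Dusp6*, the Sprouty genes *Spry2* and *Spry4*, and the transcription factor genes *Etv4*, *Etv5* and *Egr1*. Each of the 10 names was found in 1 row of the table, and all 10 genes passed the minimum of 10 counts in at least 2 libraries. Polyadenylated RNA was sequenced from G4 mESCs, a line of 129/Sv × C57BL/6 F1 hybrid background, in 3 genotypes with 2 libraries each: wild-type, heterozygous deletion of the *Wnt6* anchor region and homozygous deletion of the same region. The deletions were made with CRISPR-Cas9 and each edited line is a selected clone, so the clone and its deletion cannot be told apart in these libraries. All cells, wild-type included, were kept in medium with LIF on CD1 feeder cells. The labels do not say whether the 2 libraries of a genotype came from separate cultures, so the p-values below measure the spread between these libraries, which may be technical. Because each library is a bulk sample, fewer cells of a type and less RNA per cell cannot be told apart.

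FGF4 is the fibroblast growth factor that mESCs make and respond to themselves. It binds FGF receptor tyrosine kinases, which signal through adaptors, RAS, RAF and MEK to the kinase ERK, and ERK activity moves mESCs away from the naive state and, in the early embryo, favors primitive endoderm. ERK induces transcription factor genes such as *Egr1*, *Etv4* and *Etv5* together with genes of its own inhibitors, among them the dual-specificity phosphatases and the Sprouty proteins, so that the RNA of these feedback genes is widely read as a sign of pathway activity.

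The libraries held between 23813912 and 28964706 counts. Levels below are CPM, counts scaled to a common library size with TMM factors, and 3 counts correspond to 0.102 to 0.131 CPM, so the 10 genes, with 554 to 9547 counts per library, lie far above the smallest level this depth can show. *Wnt6*, which the deletion removes, had 11 and 13 counts without the deletion, 6 and 4 with the heterozygous and 0 and 0 with the homozygous deletion, an order that matches the labels. Of 10 mESC marker genes and 22 fibroblast marker genes, none was at 0 in all libraries. The mESC markers summed to between 2968 and 3462 CPM and the fibroblast markers to between 734 and 1640 CPM, so markers of both kinds of cell were detected in every library.

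Promoter sequences of *Fgf4*, *Etv5* and *Dusp6* are shown because *Fgf4* and *Etv5* had their lowest levels in the heterozygous deletion while *Dusp6* had its highest there. Each run is the 250 bases before an annotated RefSeq start in GRCm38.p6, 5′ to 3′ on the strand of the gene, for *Fgf4* chr7:144861136-144861385 on the plus strand, for *Etv5* chr16:22439571-22439820 and chr16:22438369-22438618 on the minus strand and for *Dusp6* chr10:99262981-99263230 on the plus strand. RefSeq promoters were matched for 5 of the 10 genes, with 6 starts in all. Capitals mark exact matches, on either strand, to the ETS-type word GGAAGT, the GC box GGGCGG and the CCAAT box. ATTGG is CCAAT on the other strand. These words do not overlap each other here, and the shorter ETS core GGAA was not searched or marked.
Fgf4: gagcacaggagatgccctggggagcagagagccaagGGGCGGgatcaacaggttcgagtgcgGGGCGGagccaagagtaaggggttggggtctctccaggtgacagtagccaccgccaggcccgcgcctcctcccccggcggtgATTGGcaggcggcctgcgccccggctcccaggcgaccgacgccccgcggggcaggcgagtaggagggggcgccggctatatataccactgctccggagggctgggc
Etv5, start at 22439570: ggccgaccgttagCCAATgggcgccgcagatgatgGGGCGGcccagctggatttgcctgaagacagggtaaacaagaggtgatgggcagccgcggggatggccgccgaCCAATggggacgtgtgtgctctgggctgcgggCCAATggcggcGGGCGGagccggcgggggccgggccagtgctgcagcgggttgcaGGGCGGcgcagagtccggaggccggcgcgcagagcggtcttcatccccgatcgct
Etv5, start at 22438368: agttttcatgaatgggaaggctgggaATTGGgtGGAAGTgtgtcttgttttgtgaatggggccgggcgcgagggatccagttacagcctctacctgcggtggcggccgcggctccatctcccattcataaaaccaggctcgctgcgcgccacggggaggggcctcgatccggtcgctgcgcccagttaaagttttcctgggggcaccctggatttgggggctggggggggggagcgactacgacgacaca
Dusp6: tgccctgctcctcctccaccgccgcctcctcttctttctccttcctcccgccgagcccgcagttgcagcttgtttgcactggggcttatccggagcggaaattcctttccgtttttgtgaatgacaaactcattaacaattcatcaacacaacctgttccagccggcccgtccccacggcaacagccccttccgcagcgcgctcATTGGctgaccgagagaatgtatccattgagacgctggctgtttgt

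The *Fgf4* window held 2 GC boxes and 1 CCAAT box, and the *Etv5* window before the start at 22439570 held 3 GC boxes and 3 CCAAT boxes. The other *Etv5* window held 1 GGAAGT word, at position -217 from the start, and 1 CCAAT box. *Dusp6* held 1 CCAAT box, and the windows of *Fgfr2* (chr7:130266809-130267058) and *Spry2* (chr14:105896820-105897069), both read on the minus strand, held none of these words. Among all 32851 promoters of this length in the RefSeq table, 19.7% held GGAAGT, 32.7% the GC box and 33.8% the CCAAT box. A match to a few letters is a description of the sequence and does not show binding. The share of G and C was 71.2% for *Fgf4*, 71.2% and 62.0% for the *Etv5* windows in the order printed, 62.4% for *Spry2*, 56.4% for *Dusp6* and 44.0% for *Fgfr2*, against a median of 52.4% over all promoters. CpG sites numbered 21 in the *Fgf4* window, 27 and 18 in the *Etv5* windows, 23 in *Spry2*, 16 in *Dusp6* and 2 in *Fgfr2*, with a median of 6.

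In wild-type mESCs all 10 genes were well expressed. Ordered by mean CPM per kilobase of the principal transcript, which allows levels of different genes to be compared, *Etv5* stood highest at 83.0 ± 1.70 (SD, n = 2), followed by *Spry2* at 59.9 ± 0.127, *Fgf4* at 57.0 ± 1.63, *Etv4* at 55.7 ± 1.02 and *Dusp6* at 50.6 ± 1.66. Lower on the same scale were *Fgfr1* at 28.0 ± 0.344, *Spry4* at 19.5 ± 0.212, *Egr1* at 16.9 ± 0.324, *Dusp4* at 16.5 ± 0.505 and *Fgfr2* at 9.06 ± 0.460 (SD, n = 2 each). Neighbors in this order whose libraries overlapped were *Fgf4* with *Etv4* and *Egr1* with *Dusp4*, while the libraries of every other neighboring pair were apart. With the union of all annotated exons as the length, *Dusp6* (45.2 CPM per kilobase) passed *Etv4* (41.9) and *Fgfr1* dropped to rank 9 (14.3), while *Etv5* remained first and *Fgfr2* last (2.91). *Fgf4* was thus the FGF ligand gene with the highest level per kilobase in these cells, ahead of *Fgf15* at 9.57, *Fgf17* at 8.54 and *Fgf2* at 6.49 CPM per kilobase.

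**Figure D1:**
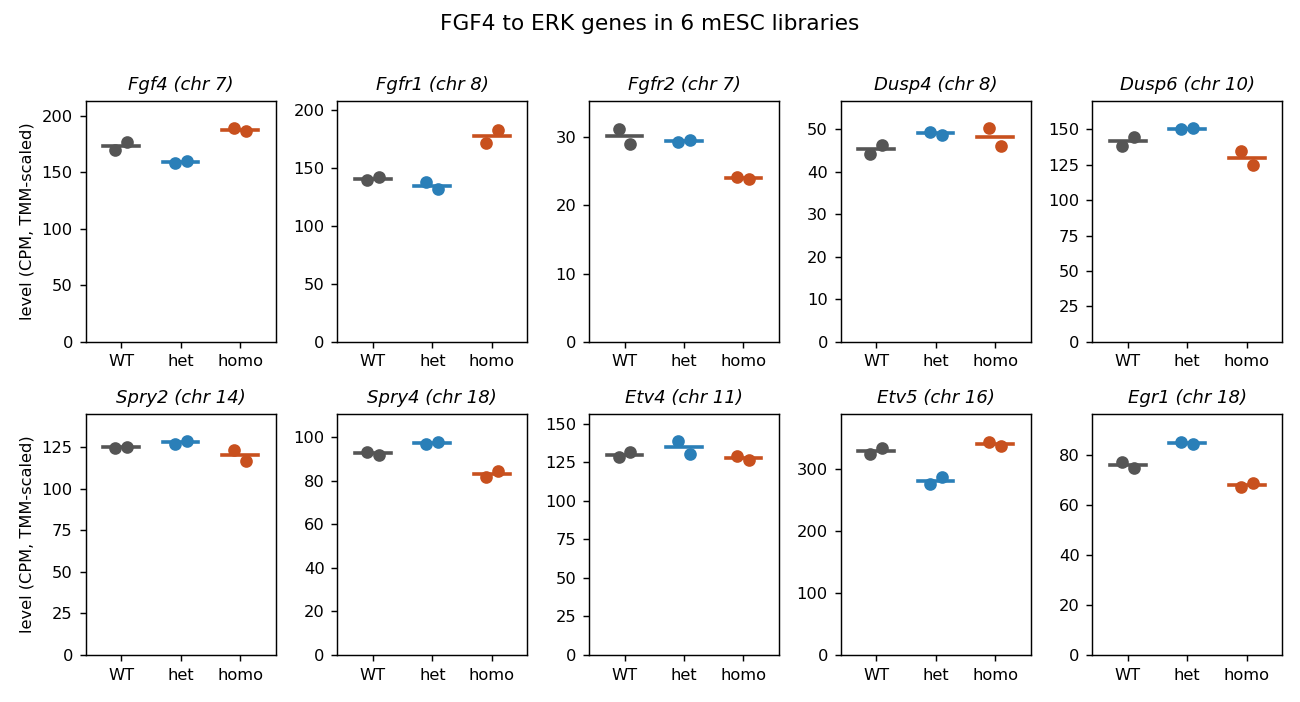
Level of each of the 10 genes in every library, in TMM-scaled CPM on axes that start at 0; points are libraries, lines are means of 2 libraries, and the chromosome is given above each panel. *Etv5* and *Fgf4* are lowest in the heterozygous deletion, *Fgfr1* is highest and *Fgfr2*, *Spry4* and *Egr1* are lowest in the homozygous deletion, and no gene moves by as much as 2-fold.

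The 3 genotypes gave 3 comparisons in 1 edgeR fit of all 6 libraries: each deletion with wild-type and the homozygous with the heterozygous deletion. They share libraries, so their values are set side by side and are not independent of each other. In the heterozygous deletion 1 of the 10 genes passed an adjusted p of 0.05, *Etv5*, which was lower, while 5.14% of the 16951 genes tested passed, 2.23% higher and 2.91% lower. Against the same wild-type libraries, 4 of 10 passed in the homozygous deletion, with *Fgfr1* higher and *Fgfr2*, *Spry4* and *Egr1* lower, against 21.4% of all genes, 10.9% higher and 10.5% lower. Between homozygous and heterozygous deletion 7 of 10 passed, with *Fgf4*, *Fgfr1* and *Etv5* higher and *Fgfr2*, *Dusp6*, *Spry4* and *Egr1* lower in homozygous cells, against 25.8% of all genes, 12.9% in each direction. The genes tested include many with far fewer counts than these 10. With a minimum of 50 counts in 2 libraries, 848, 3490 and 4211 of 12848 genes passed in the order of the comparisons. The 10 genes were chosen with earlier results of these data known. The median log2 fold change of the 10 genes was 0.04, -0.04 and -0.08 in the order of the comparisons, and that of all genes tested was 3.68e-06, -0.0061 and -0.020.

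The changes were small. None of the 10 genes also had an absolute log2 fold change above 1, a rule met by 0.165%, 2.14% and 1.39% of all genes in the same order. The median absolute log2 fold change of the 10 genes was 0.08, 0.12 and 0.23, beside 0.10, 0.15 and 0.17 over all genes. For heterozygous cells, both libraries lay above both wild-type libraries for 5 of the genes and below them for 3, and 47.7% of all genes had such separate libraries. The homozygous libraries were separate from wild-type for 8 genes, 3 above and 5 below (57.9% of all genes), and from the heterozygous libraries for 9 genes, 3 above and 6 below (61.4% of all genes).

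**Figure D2:**
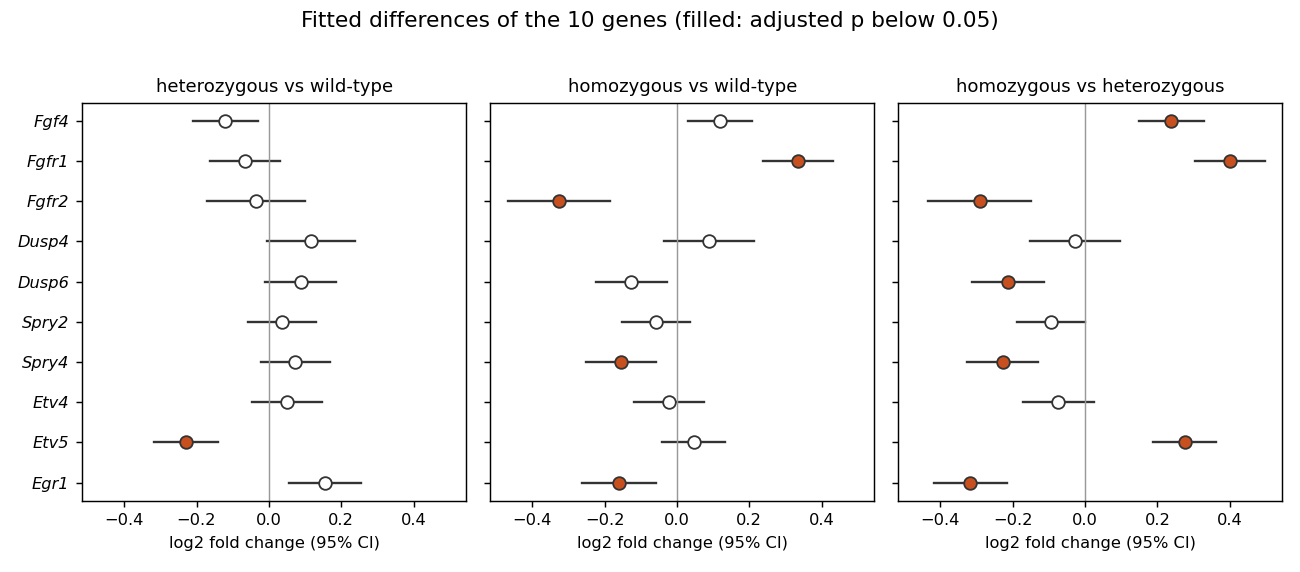
Fitted log2 fold change of each gene (x axis) with its 95% confidence interval from the edgeR fit, in the 3 comparisons; filled points have an adjusted p below 0.05. Filled points number 1 in the heterozygous and 4 in the homozygous comparison with wild-type and 7 between the deletions, and every point lies between -0.33 and 0.40.

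*Fgf4* (ENSMUSG00000050917, chr7:144847367-144865243, plus strand), the ligand gene, stood at 169 and 176 CPM in wild-type libraries, 158 and 160 in heterozygous libraries, and 189 and 186 in homozygous libraries. The heterozygous libraries were the lowest and the homozygous the highest, with no overlap between genotypes. Its level was 18.0% higher in homozygous than in heterozygous cells (95% confidence interval 10.9 to 25.6%, log2 fold change 0.24, standard error 0.0430, edgeR adjusted p = 0.000338). Neither deletion differed from wild-type past the threshold, at log2 fold changes of -0.12 (standard error 0.0429, adjusted p = 0.132) and 0.12 (standard error 0.0427, adjusted p = 0.0542). The homozygous value sat near the threshold and passed it in 3 of 15 alternative settings, with adjusted p between 0.0362 and 0.373. Of the 10 mESC markers, 6 were lower in the heterozygous deletion than in wild-type (median log2 fold change -0.19), and this count was 3 without wild-type replicate 1 and 2 without wild-type replicate 2 or heterozygous replicate 2. Between the deletions 8 were higher in homozygous cells (median 0.17), a count of 5 without either heterozygous replicate, 3 without homozygous replicate 1 and 4 with library totals only. In homozygous cells against wild-type 1 was higher and 1 lower (median 0.01). Among all genes 2.91% were lower in heterozygous cells than in wild-type, and 12.9% were higher in homozygous than in heterozygous cells. In homozygous cells against wild-type 10.9% of all genes were higher and 10.5% lower. The part of mESC content in the *Fgf4* values was not tested.

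The receptor genes moved in opposite directions in the homozygous deletion. *Fgfr1* (ENSMUSG00000031565, chr8:25513654-25575718, plus strand), whose product is the receptor most often tied to FGF4 in naive mESCs, was at 140 and 142 CPM in wild-type libraries, 138 and 131 in heterozygous libraries, and 172 and 183 in homozygous libraries. Both homozygous libraries lay above the other 4. The level was 26.1% higher than in wild-type (95% confidence interval 17.9 to 34.8%, log2 fold change 0.33, standard error 0.0461, adjusted p = 1.91e-05) and 32.0% higher than in the heterozygous deletion (23.4 to 41.2%, log2 fold change 0.40, standard error 0.0464, adjusted p = 1.91e-06). Heterozygous cells were not past the threshold (log2 fold change -0.07, standard error 0.0466, adjusted p = 0.531). An antisense transcript, Gm16159, shares 164 exonic bases with *Fgfr1* and had only 2 to 8 counts per library.

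*Fgfr2* (ENSMUSG00000030849, minus strand), the receptor gene better known from extraembryonic and primitive endoderm cells, was at 31.2 and 29.0 CPM in wild-type libraries, 29.2 and 29.6 in heterozygous libraries, and 24.2 and 23.9 in homozygous libraries. The homozygous libraries were the lowest, and the wild-type and heterozygous libraries overlapped. It fell by 0.33 on the log2 scale against wild-type with the homozygous deletion, a difference of -20.3% (95% confidence interval -27.7 to -12.1%, standard error 0.0676, adjusted p = 0.00136), and by 0.29 against the heterozygous deletion (standard error 0.0682, adjusted p = 0.00354). The heterozygous log2 fold change was -0.04 (standard error 0.0654, adjusted p = 0.860) and became 0.02 without wild-type replicate 1. GENCODE gives this gene a span of chr7:130162451-133123350 because of a read-through transcript, beside chr7:130162451-130266808 in RefSeq, and 314 of its exonic bases are shared with *Ctbp2* on the same strand, so reads in those bases cannot be assigned to 1 of these genes. Of 8 primitive endoderm markers tested, *Dab2* alone fell in the homozygous deletion against wild-type, by 0.48 on the log2 scale (adjusted p = 0.000423), and *Cubn* alone rose in the heterozygous deletion, with a log2 fold change of 1.28 (adjusted p = 9.30e-05). Among all genes 10.5% were lower in the homozygous and 2.23% higher in the heterozygous deletion. Both *Dab2* and *Cubn* were added after their values were seen, so their calls only describe these libraries. With both included, the 10 markers summed to 46.4 to 51.5 CPM in wild-type and homozygous libraries. Heterozygous libraries summed to 57.9 and 59.0 CPM. The part of such cells in the *Fgfr2* values was not tested.

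Chromosome 8, which carries *Fgfr1* and *Dusp4*, stood apart as a whole in these libraries. Over its 890 tested genes the median log2 fold change against wild-type was 0.39 in homozygous cells, with 89.0% of them above 0 and 61.5% called higher, while the medians of the other autosomes and the X chromosome lay between -0.05 and 0.02. *Fgfr1*, at 0.33, was 0.06 below the median of the other chromosome 8 genes and above 39.7% of the genes of that chromosome. *Dusp4*, at 0.09, was 0.31 below that median and above 15.4% of them. In the heterozygous deletion the chromosome 8 median was -0.12, with *Fgfr1* above 66.9% and *Dusp4* above 89.3% of its genes. The rise of *Fgfr1* thus lay just below the middle of its own chromosome. The copy number of chromosome 8 was not tested.

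**Figure D3:**
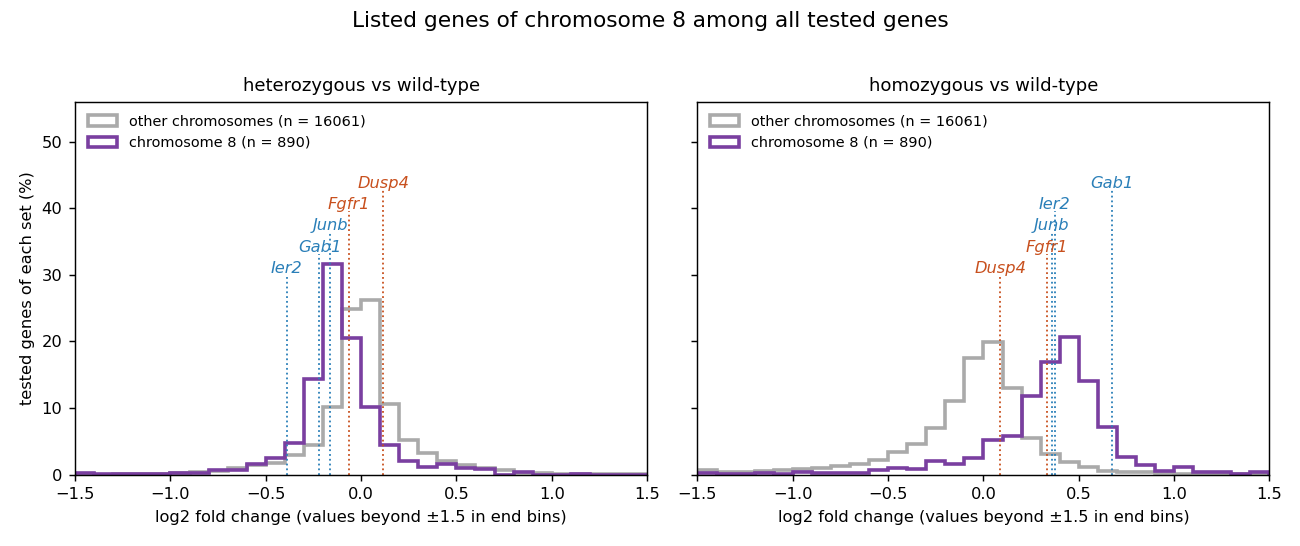
Share of tested genes (y axis, %) by log2 fold change against wild-type (x axis) for chromosome 8 (890 genes) and all other chromosomes (16061 genes), in the heterozygous (left) and homozygous (right) deletion; dotted lines mark the 5 pathway genes tested on chromosome 8. In the right panel the chromosome 8 histogram is shifted to a median of 0.39, and *Fgfr1*, *Junb* and *Ier2* lie near its middle, *Gab1* above it and *Dusp4* below it.

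The phosphatase genes encode enzymes that remove the activating phosphates from ERK, DUSP6 in the cytoplasm and DUSP4 in the nucleus. *Dusp6* (ENSMUSG00000019960, chr10:99263231-99267489, plus strand) stood at 138 and 145 CPM in wild-type libraries, 150 and 151 in heterozygous libraries, and 135 and 125 in homozygous libraries. The 3 genotypes did not overlap, with heterozygous highest and homozygous lowest. It was 13.7% lower in homozygous than in heterozygous cells (95% confidence interval -19.5 to -7.62% for the difference, log2 fold change -0.21, standard error 0.0473, adjusted p = 0.00226). Against wild-type its log2 fold change was 0.09 in the heterozygous (standard error 0.0468, adjusted p = 0.375) and -0.13 in the homozygous deletion (standard error 0.0473, adjusted p = 0.0655). The homozygous value passed the threshold in 5 of 15 alternative settings, with adjusted p between 0.00561 and 0.428.

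*Dusp4* (ENSMUSG00000031530, chr8:34807297-34819894, plus strand) passed in none of the comparisons. It was at 44.2 and 46.2 CPM in wild-type libraries, 49.3 and 48.6 in heterozygous libraries, and 50.3 and 45.9 in homozygous libraries, and the homozygous pair overlapped both other genotypes. Its log2 fold changes were 0.12 (standard error 0.0587, adjusted p = 0.342) and 0.09 (standard error 0.0592, adjusted p = 0.328) against wild-type. The 95% confidence interval of the homozygous difference from wild-type ran from -2.40 to 15.9%. Between the deletions the log2 fold change was -0.03 (adjusted p = 0.781), and it turned to 0.04 without homozygous replicate 2.

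Of the Sprouty genes, whose products damp receptor signaling toward RAS and RAF, *Spry4* (ENSMUSG00000024427, chr18:38586247-38601415, minus strand) changed and *Spry2* gave no call. *Spry4* was at 93.3 and 91.8 CPM in wild-type libraries, 96.8 and 98.0 in heterozygous libraries, and 81.8 and 84.5 in homozygous libraries. No genotypes overlapped, and the order was that of *Dusp6*. In the homozygous deletion it was 14.6% lower than in the heterozygous deletion (95% confidence interval -20.2 to -8.64% for the difference, log2 fold change -0.23, standard error 0.0467, adjusted p = 0.00113). Against wild-type it fell by 0.15 (log2, standard error 0.0467, adjusted p = 0.0221), a call lost with DESeq2 (adjusted p = 0.0909) and without homozygous replicate 1 (0.140), wild-type replicate 1 (0.158) or wild-type replicate 2 (0.103).

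*Spry2* (ENSMUSG00000022114, chr14:105891947-105896819, minus strand) varied little, at 125 and 125 CPM in wild-type libraries, 127 and 129 in heterozygous libraries, and 123 and 117 in homozygous libraries. The homozygous libraries were the lowest and the genotypes did not overlap. Its log2 fold changes were 0.04 (adjusted p = 0.771) and -0.06 (adjusted p = 0.416) against wild-type and -0.09 (standard error 0.0453, adjusted p = 0.139) between the deletions. The last interval ran from -12.3 to 0.0609% of the level. With library totals as the only scaling, *Spry2* passed between the deletions (log2 fold change -0.16, adjusted p = 0.00879).

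*Etv5* (ENSMUSG00000013089, chr16:22381309-22439719, minus strand) encodes an ETS factor of the PEA3 group induced by FGF signaling, and it was the single gene of the 10 that passed the threshold in the heterozygous deletion. Levels were 325 and 335 CPM in wild-type libraries, 275 and 287 in heterozygous libraries, and 344 and 337 in homozygous libraries. The heterozygous libraries lay below the other 4, and the homozygous libraries just above wild-type. It fell by 0.23 on the log2 scale in the heterozygous deletion, a difference of -14.7% from wild-type (95% confidence interval -19.7 to -9.36%, standard error 0.0417, adjusted p = 0.00180). This call was lost without wild-type replicate 2 (adjusted p = 0.0605). In homozygous cells *Etv5* was 21.0% above heterozygous cells (13.9 to 28.6%, log2 fold change 0.28, standard error 0.0418, adjusted p = 5.40e-05). The homozygous difference from wild-type, 0.05 on the log2 scale (standard error 0.0415, adjusted p = 0.487), turned to -0.01 with library totals as the only scaling. Like *Fgf4*, *Etv5* moved with the mESC markers, whose medians are given above, and the part of mESC content was not tested.

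*Etv4* (ENSMUSG00000017724, chr11:101769742-101785371, minus strand), which encodes another PEA3 factor, gave no call. It was at 128 and 132 CPM in wild-type libraries, 139 and 130 in heterozygous libraries, and 129 and 127 in homozygous libraries, with wild-type overlapping both deletions. Its log2 fold changes were 0.05 (adjusted p = 0.658), -0.02 (adjusted p = 0.786) and -0.07 (standard error 0.0464, adjusted p = 0.266) in the order of the comparisons. The homozygous value against wild-type turned to 0.0054 without wild-type replicate 2, and between the deletions it passed with library totals as the only scaling (log2 fold change -0.14, adjusted p = 0.0248).

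*Egr1* (ENSMUSG00000038418, chr18:34859823-34864984, plus strand), an immediate early gene whose zinc finger product is made within minutes of ERK activation, was at 76.9 and 74.8 CPM in wild-type libraries, 85.0 and 84.1 in heterozygous libraries, and 67.1 and 68.6 in homozygous libraries. The genotypes did not overlap, with heterozygous highest and homozygous lowest. Between the deletions it was 19.7% lower in homozygous cells (95% confidence interval -25.2 to -13.9% for the difference, log2 fold change -0.32, standard error 0.0485, adjusted p = 5.96e-05). Against wild-type it fell by 0.16 in homozygous cells (log2, standard error 0.0487, adjusted p = 0.0226), which was lost with DESeq2 (adjusted p = 0.0997) and without homozygous replicate 1 (0.112), wild-type replicate 1 (0.187) or wild-type replicate 2 (0.0847). The heterozygous difference from wild-type, 0.16 on the log2 scale (standard error 0.0476, adjusted p = 0.0667), passed in 3 of 15 alternative settings. Across the 10 genes the order of genotypes thus differed. *Dusp6*, *Spry2*, *Spry4*, *Etv4* and *Egr1* had their highest mean in heterozygous and their lowest in homozygous cells, though wild-type libraries of *Etv4* overlapped both deletions. Of these, *Spry2* and *Etv4* gave no call in any comparison. *Fgf4*, *Fgfr1* and *Etv5* had their lowest mean in heterozygous and their highest in homozygous cells. That is also the order of the chromosome 8 medians, -0.12 and 0.39 on the log2 scale against wild-type. The share of all genes with either order was not counted. The means of *Fgfr2* and *Dusp4* followed neither order.

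All 7 calls between the deletions were kept in each of the 15 alternative settings, as were the calls of *Fgfr1* and *Fgfr2* in the homozygous deletion against wild-type. Other genes with the same pattern over the 6 libraries were sought by the root mean square difference of centered log2 CPM among 9315 genes with a mean of at least 10 CPM. Closest to *Fgf4* were *Osbpl1a* (0.0128), *Tars* (0.0136) and *Rbpj* (0.0139), where *Fgf4* itself varied by 0.0991 around its mean. Nearest to *Fgfr1*, which varied by 0.178, were *Dus2* (0.0203), *Ist1* (0.0240) and *Tnpo2* (0.0279), all 3 on chromosome 8. *Dusp6* varied by 0.0948 and its nearest were *Abhd4* (0.0145), *Rgmb* (0.0216) and *Il17rd* (0.0225), the last of which encodes another feedback inhibitor of FGF receptors. These 6 libraries fall into 3 genotypes, so many genes can share a pattern by these measures.

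Beyond the 10 genes, 78 further genes of the pathway were in the table and 70 were tested. Heterozygous cells had 5 higher and 6 lower, 15.7% of those tested beside 5.14% of all genes. These 11 calls came to 5 with DESeq2, 7 without heterozygous replicate 1, 3 without either wild-type replicate, and 2 without heterozygous replicate 2, where 355 of 16951 genes were called in all. Homozygous cells had 6 higher and 12 lower, 25.7% beside 21.4% of all genes. The median log2 fold change of these genes was -0.02 and -0.07 in the same order.

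Ligands other than FGF4 went both ways. Of the 10 tested, 2 rose and 3 fell in the homozygous deletion, with a median of -0.38, beside 10.9% higher and 10.5% lower among all genes. *Fgf2*, a ligand that fibroblasts and other mesenchymal cells make, was at 39.0 and 38.6 CPM in wild-type libraries, 26.5 and 27.9 in heterozygous libraries, and 16.2 and 14.5 in homozygous libraries, a stepwise order with no overlap. It fell by 0.51 (adjusted p = 5.77e-05) and 1.34 (adjusted p = 8.16e-11) on the log2 scale. *Fgf7*, the keratinocyte growth factor of mesenchyme, was at 6.71 and 6.62, 5.10 and 5.56, and 2.97 and 3.61 CPM, and fell by 1.01 in the homozygous deletion (adjusted p = 2.20e-05). Its heterozygous log2 fold change of -0.32 gave no call (adjusted p = 0.187). *Fgf10*, another mesenchymal ligand, was at 1.43 and 1.72, 1.53 and 1.80, and 0.699 and 0.615 CPM, and fell by 1.25 (adjusted p = 0.00379). Both homozygous libraries were below the other 4 for *Fgf7* and *Fgf10*.

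The 22 fibroblast markers summed to 1640 and 1627 CPM in wild-type libraries, 1159 and 1100 in heterozygous libraries, and 748 and 734 in homozygous libraries. Of the 20 tested, 14 were lower in the heterozygous deletion (median log2 fold change -0.49) and 18 in the homozygous deletion (median -1.09), and none was higher. Among all genes 2.91% and 10.5% were lower in the same order. The part of feeder cell content in the ligand values was not tested, nor was its part in *Fgfr1*, *Fgfr2*, *Egr1* and the other genes that fibroblasts also express.

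*Fgf17*, a ligand of the FGF8 group, and *Fgf1* rose. *Fgf17* was at 13.7 and 15.1 CPM in wild-type libraries, 11.8 and 10.8 in heterozygous libraries, and 20.7 and 18.9 in homozygous libraries, the same order of genotypes as *Fgf4*. It rose by 0.46 in the homozygous deletion (adjusted p = 0.000618) and fell by 0.35 in the heterozygous deletion (adjusted p = 0.0335, a call kept in 10 of 15 alternative settings). *Fgf1*, which binds all FGF receptors, counted 18 and 12 reads in wild-type libraries, 15 and 17 in heterozygous libraries, and 40 and 42 in homozygous libraries, and its rise in homozygous cells, 1.61 on the log2 scale (standard error 0.304, adjusted p = 0.000582), rests on these few counts. The other tested ligands gave no call against wild-type. Mean levels in wild-type, heterozygous and homozygous libraries were 17.3, 14.9 and 18.3 CPM for *Fgf15* and 4.97, 4.02 and 5.16 CPM for *Fgf5*. On the same scale *Fgf18* had means of 1.96, 1.51 and 1.25, *Fgf3* of 1.67, 1.50 and 1.55, and *Fgf8* of 0.524, 0.666 and 0.304.

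**Figure D4:**
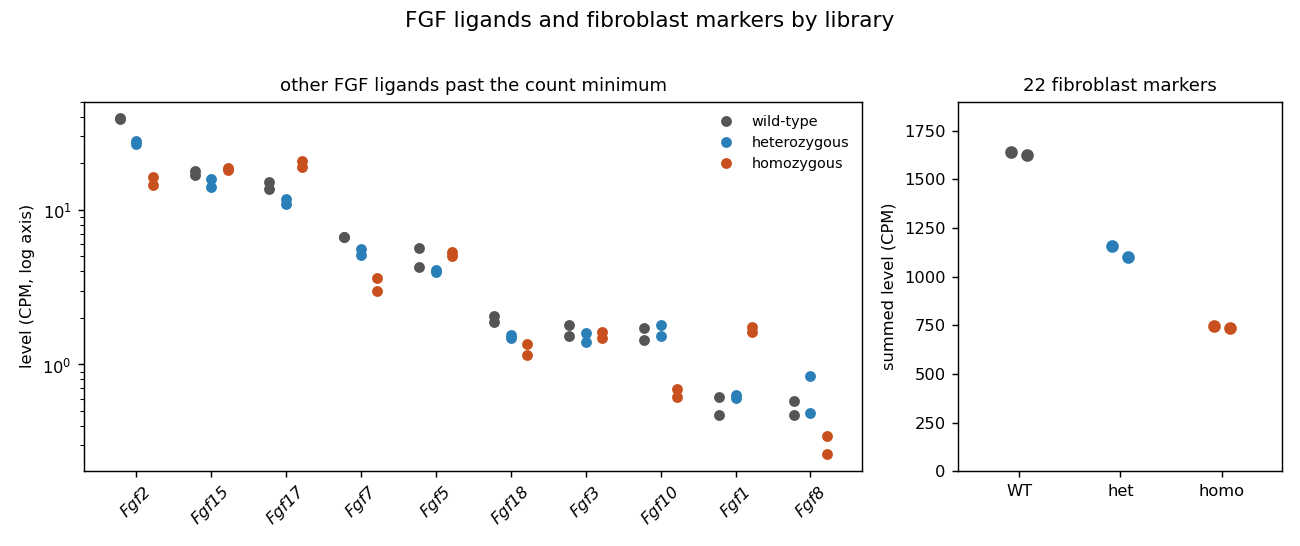
Left, level of the 10 other tested FGF ligand genes in every library, in CPM on a log axis, ordered by wild-type mean; right, summed CPM of the 22 fibroblast marker genes per library on an axis from 0. *Fgf2* and *Fgf7* step down from wild-type to heterozygous to homozygous libraries as the marker sum does, from 1640 and 1627 to 748 and 734 CPM, while *Fgf1* and *Fgf17* are highest in the homozygous libraries. *Fgf10* is lowest in the homozygous libraries and does not fall in the heterozygous libraries.

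The other receptor genes and the genes between the receptors and ERK were tested as well. Of the 4 other receptor and co-receptor genes tested, none passed in any comparison by edgeR. Of 23 genes of the cascade from receptor adaptors to ERK and its RSK kinases, 2 were higher and none lower in the homozygous deletion. Among all genes 10.9% were higher and 10.5% lower. The median log2 fold change of the 23 cascade genes was 0.02. Among them was *Gab1*, a docking adaptor gene on chromosome 8, at 401 and 406 CPM without and 641 and 646 with the homozygous deletion (log2 fold change 0.67, adjusted p = 2.83e-10). *Gab1* was lower in the heterozygous deletion, its log2 fold change being -0.22 (adjusted p = 0.00215).

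Among 11 other feedback inhibitors 1 was lower in the homozygous deletion, *Spred3*, which encodes a Sprouty-related inhibitor (log2 fold change -0.29, adjusted p = 0.00831, kept in 13 of 15 alternative settings). Against wild-type 10.5% of all genes were lower in that deletion. In homozygous against heterozygous cells 5 of the 11 were lower and none higher, namely *Lztr1*, *Spred1*, *Dusp9*, *Spred3* and *Il17rd*, with a median log2 fold change of -0.16 over the 11. Of all genes, 12.9% were lower and 12.9% higher in this comparison.

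Of 22 other ERK-responsive genes, 2 rose and 8 fell in the homozygous deletion, beside 10.9% higher and 10.5% lower among all genes. The median log2 fold change of the 22 genes was -0.21. Those that fell most were *Egr2* (log2 fold change -0.84, adjusted p = 0.000282), a zinc finger factor gene like *Egr1*, *Elk3* (-0.59, adjusted p = 6.98e-05), an ETS factor gene, and *Egr3* (-0.51, adjusted p = 0.0430, kept in 8 of 15 alternative settings). *Egr2* was at 5.62 and 6.50 CPM in wild-type libraries, 4.30 and 4.21 in heterozygous libraries, and 3.06 and 3.65 in homozygous libraries. The other 5 that fell were *Ier5*, *Ier3*, *Myc*, *Elk4* and *Fosl2*, the calls of *Elk4* and *Fosl2* being kept in 9 and 12 of 15 alternative settings. Those that rose were the immediate early genes *Ier2* (0.37, adjusted p = 0.000395) and *Junb* (0.36, adjusted p = 0.0124, kept in 11 of 15 alternative settings), and both lie on chromosome 8. Of the 7 pathway genes that rose in the homozygous deletion, *Fgfr1* included, 4 were on chromosome 8, which holds 5 of the 80 pathway genes tested.

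In the heterozygous deletion the 22 ERK-responsive genes split evenly, with 3 higher and 3 lower, beside 2.23% higher and 2.91% lower among all genes. The largest rises over all classes were *Phlda1* (log2 fold change 0.28, adjusted p = 0.0180), *Dusp1* (0.27, adjusted p = 0.00429), which encodes a nuclear phosphatase, and *Fosl2* (0.26, adjusted p = 0.0272). The largest falls were *Fgf2*, *Egr2* (-0.50, adjusted p = 0.0385) and *Ier2* (-0.39, adjusted p = 0.00146). Of the 11 calls in this comparison, that of *Fgf2* held in all 15 alternative settings and each of the other 10 was lost in 2 to 6 of them. Markers of the formative or primed epiblast, the state that ERK signaling favors over the naive one, numbered 9. Heterozygous cells had 3 of them lower (*Dnmt3a*, *Otx2* and *Foxd3*, median log2 fold change -0.18 over the 9) and homozygous cells had 2 lower (*Lef1* and *Pou3f1*, median -0.12), with none higher in either. Among all genes 2.91% were lower in heterozygous and 10.5% in homozygous cells. The heterozygous count of epiblast markers was 1 without wild-type replicate 2 or heterozygous replicate 1. The homozygous count was 1 with DESeq2 and without wild-type replicate 2 or homozygous replicate 1, and 5 with library totals only. *Fgf5* belongs both to these markers and to the ligands above.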

How the data were processed

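For 6 libraries the authors deposited whole-number counts per gene that had not been normalized. Per the labels and methods, stranded mRNA libraries (KAPA mRNA Hyper Prep) were sequenced, and the submitters' processing notes name Trimmomatic 0.39, STAR 2.6.1d, SAMtools 1.9, featureCounts 1.6.4, DESeq2 1.22.2 and mm10/GRCm38. The annotation release and strand setting are not given in the sources used here. Without the strand setting, reads of overlapping genes on opposite strands cannot be told apart. The methods state biological triplicates, and the labels give 2 libraries per genotype, which were used.

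The 16951 genes with 10 or more counts in 2 or more libraries were fitted in edgeR 4.0.16 (R 4.3.3) with TMM factors and the quasi-likelihood test, 1 coefficient per genotype, with Benjamini-Hochberg adjustment over all genes tested. Adjusted p-values in the text come from this fit unless another tool is named. The standard error is the log2 fold change divided by the root of F, with 95% intervals from the t distribution on the fitted degrees of freedom. The biological coefficient of variation was 3.52%. A gene was called at an adjusted p below 0.05, and the stricter rule also asks for an absolute log2 fold change above 1. The 2 libraries of each genotype differed by more than sampling noise (chi-square per degree of freedom 2.34, 2.45 and 3.65 in the order wild-type, heterozygous, homozygous). Lengths and positions come from GENCODE M21, in which 55144 of 55385 gene identifiers were found, and promoters from RefSeq GRCm38.p6. The fit was also run on counts simulated from its own fitted spread and the mean levels of these data. Such counts hold no clone effect, so that run does not bear on the part of the clones.

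The 10 genes, the wider pathway list and the marker lists were chosen with earlier results of these data known. All 10 genes are named. Of the wider list, genes past the threshold are named with values where they have the highest absolute log2 fold change, up to 3 per direction and class in the homozygous deletion and up to 3 per direction in the heterozygous deletion, with every tested FGF ligand. The markers *Dab2* and *Cubn* were added after their values were seen. Some items of the wider list that this rule names are not reported here.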

Additional observations from a re-analysis of the deposited data

Results flagged for a closer look

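The difference between the effects of the 2 deletions was itself past the threshold for 7 of the 10 genes, as the homozygous against heterozygous contrast of the edgeR fit, which cancels the shared wild-type libraries. The homozygous effect was the more positive for *Fgfr1*, by 0.40 on the log2 scale, for *Etv5*, by 0.28, and for *Fgf4*, by 0.24. It was the more negative for *Egr1*, with a difference of -0.32, for *Fgfr2*, with -0.29, for *Spry4*, with -0.23, and for *Dusp6*, with -0.21. Over all genes tested, 25.8% passed in this contrast. *Fgfr1* lies on chromosome 8, whose 890 tested genes had a median of 0.51 in this contrast. The 20 fibroblast markers tested had a median of -0.61 and the 10 mESC markers a median of 0.17 in it. The part of these shifts in the 7 differences was not tested, and the clone and the genotype cannot be told apart.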

How the results depend on the processing

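Each value was recomputed under 15 alternative settings of tool, scaling, count filter, samples and left-out library. For the 10 genes, 424 of the recomputed log2 fold changes kept their direction and side of the threshold, 13 newly passed, 9 no longer passed and 4 changed sign. The 4 changes of sign were in values that gave no call: *Fgfr2* in the heterozygous deletion (-0.0847 to 0.0187 with 1 library left out, the highest without wild-type replicate 1), *Dusp4* between the deletions (-0.0841 to 0.0377, the highest without homozygous replicate 2), *Etv4* in the homozygous deletion (-0.0416 to 0.0054, the highest without wild-type replicate 2) and *Etv5* in the homozygous deletion (-0.011 with library totals only). With a fold threshold added, 0 of the 10 genes were called in each comparison, and 0, 4 and 2 of the wider list in the heterozygous, homozygous and between-deletion comparisons. The heterozygous count of the 10 genes was 2 with only the 2 genotypes compared in the fit and 0 to 2 with 1 library left out, at 0 without wild-type replicate 2 and 2 without either homozygous replicate. The homozygous count was 2 with DESeq2 and 2 to 4 with 1 library left out, at 2 without either wild-type replicate. Between the deletions the count stayed at 7 with any library left out. The wider list gave 5 heterozygous calls with DESeq2 and 2 to 11 with 1 library left out, at 2 without heterozygous replicate 2, 3 without either wild-type replicate and 7 without heterozygous replicate 1. It gave 13 to 19 homozygous and 20 to 26 between-deletion calls with 1 library left out. Fibroblast marker calls ran from 12 to 14, 16 to 18 and 15 to 18 over all settings, mESC marker calls from 2 to 8, 1 to 2 and 3 to 8, and epiblast marker calls from 1 to 3, 1 to 5 and 1 to 4.

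Libraries with the same replicate number did not deviate together (correlations 0.0286, -0.0892 and 0.0084), so no shared effect of the number was seen. Whether samples were handled in pairs cannot be told from these values. With the replicate block the 10 genes gave 1, 4 and 7 calls and the wider list 11, 16 and 26. In all 816, 3447 and 4150 genes were called with the block, beside 871, 3633 and 4371 without it. No scaling moved the median of all genes by more than 0.1 on the log2 scale, and the furthest was -0.09 between the deletions with library totals only. With 2 libraries per genotype, the 95% intervals of the 10 genes were 10.3 to 18.5 percentage points wide.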
